A study of Mus musculus with 24 samples.

Results

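The genes described here are 10 markers of adipocyte precursors and of the stroma they sit in, Pdgfra, Pdgfrb, Cd34, Ly6a, Thy1, Dpp4, Pi16, Zfp423, Zfp521 and Cd24a, taken by symbol from a table of 49452 genes. Each symbol matched 1 row. The study silenced the long non-coding RNA H19 in primary (1°) mouse precursors and followed the cells from the start of adipogenesis (d0) to d3. Stromal vascular fraction (SVF), the cells of fat that remain once the floating adipocytes are removed, came from interscapular brown fat (BAT) or perigonadal visceral white fat (vWAT) of young male C57BL/6 mice. Cells were nucleofected with a non-targeting siRNA (siCtrl, written siKO in the sample titles) or with siRNA to H19 (siH19), which gave 8 groups of 3 libraries, 24 in all. Induction medium held insulin, dexamethasone and rosiglitazone, with IBMX for vWAT and with indomethacin and triiodothyronine for BAT. The labels assign IBMX to both depots and the paper to the white depots alone, which was not settled. Later medium held triiodothyronine for BAT and rosiglitazone for vWAT. The methods allow several BAT donors in 1 preparation, and the labels do not tie a library to an animal, so that a p-value here measures the spread between these libraries, which may be technical. Depot, induction medium and library series (MB-3 for BAT and MB-4 for vWAT) went together and cannot be told apart.

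Adipocyte precursors are fibroblast-like cells of the vessel wall and of the sheaths between fat lobules. They are sorted by surface proteins: the PDGF receptors, the stem and progenitor sialomucin CD34, and the GPI-anchored proteins SCA-1 (Ly6a) and THY1. DPP4 and PI16 mark an interstitial progenitor that gives rise to more committed preadipocytes, CD24 marks an early precursor, and the zinc-finger proteins ZFP423 and ZFP521 act on commitment in opposite directions. Precursor markers are known to be lost as lipid-laden adipocytes form.

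All 10 are protein-coding genes, placed here on GRCm38 as in the deposited table. The 2 receptor genes have 23 (Pdgfra) and 24 (Pdgfrb) exons in their longest coding transcript, and the small surface proteins have 4 (Ly6a), 4 (Thy1) and 2 (Cd24a). Antisense genes overlapped Pdgfra, Cd34, Dpp4 and Pi16. The one over Pi16, AC162182.1, covered 2569 bases and had no value to use here. Of the others, Gm42802 over Pdgfra reached 7.05 FPKM in a library, Gm16897 over Cd34 reached 0.794 and Gm13561 over Dpp4 reached 0.0607. Whether reads were counted by strand is not given in the sources used here, so reads of such pairs may not be separable. Of all 75-base windows of the Ly6a transcripts, 6.33% also occurred in Ly6c1 or Ly6i, members of the same gene family, so that its value is uncertain by an amount that was not measured. The same share was 4.05% for Pdgfra, 2.52% for Dpp4, 2.38% for Pi16, 1.10% for Cd24a and 1.04% for Cd34, and no window of Pdgfrb, Thy1, Zfp423 or Zfp521 was shared.

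The siRNA design is shown because every siH19 library depends on it. The sample titles carry the number 3 after siH19, and the methods name a single oligonucleotide, so that it is not settled which of the study's designs was used. The guide (antisense) strands of the designs named siH19 and siH19#3 are given with the seed, bases 2 to 8, in capitals.
siH19: uCUUGAUUcagaacgagacgg
siH19#3: uGGUGUUCaagaaggcuggat
The first pairs with 19 bases of exon 3 of H19-201 at chr7:142576255-142576273 on the minus strand, and the second crosses an exon junction that involves exon 2, within chr7:142576524-142576624 on the same strand. Each full target was present in 5 of 7 H19 transcripts. The longest coding transcript of each marker had a 3′ UTR of 362 to 3101 bases, and 0 of the 10 held a match to a seed of these guides, which says only that these letters were not in those windows.

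RefSeq promoter windows (GRCm38.p6) were on hand and used for 5 of the 10 genes, Pdgfra, Cd34, Dpp4, Pi16 and Zfp423. The 250 bases before the start are printed for Dpp4 and Pi16, a pair that marks the same progenitors and moved apart in culture, and for Zfp423, which rose in BAT. Capitals mark matches, on either strand, to the TATA box (TATAAA), the CCAAT box, the GC box (GGGCGG), an AP-1 site (TGANTCA) and the site core of the glucocorticoid receptor (AGAACA), which dexamethasone activates.
Dpp4, chr2:62412232-62412481, minus strand: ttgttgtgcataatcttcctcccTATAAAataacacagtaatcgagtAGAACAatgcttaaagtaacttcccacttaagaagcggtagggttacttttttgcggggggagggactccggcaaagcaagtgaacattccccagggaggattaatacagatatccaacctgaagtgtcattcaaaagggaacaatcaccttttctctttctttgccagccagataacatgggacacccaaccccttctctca
Pi16, chr17:29318632-29318881, plus strand: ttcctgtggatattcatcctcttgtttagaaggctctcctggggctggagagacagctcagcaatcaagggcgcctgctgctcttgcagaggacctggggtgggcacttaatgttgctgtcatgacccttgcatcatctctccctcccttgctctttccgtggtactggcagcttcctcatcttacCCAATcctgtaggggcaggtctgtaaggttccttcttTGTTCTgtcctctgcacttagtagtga
Zfp423, chr8:87959596-87959845, minus strand: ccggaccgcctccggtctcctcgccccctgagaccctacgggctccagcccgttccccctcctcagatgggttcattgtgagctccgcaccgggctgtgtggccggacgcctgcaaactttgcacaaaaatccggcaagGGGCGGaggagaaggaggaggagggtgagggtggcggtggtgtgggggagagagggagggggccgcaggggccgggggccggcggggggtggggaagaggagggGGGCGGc
Both Dpp4 and Pi16 held AGAACA or its reverse complement once, at 203 and 27 bases before the start, as did 16.1% of 32851 windows. Dpp4 also held TATAAA, at -227 from the start (12.4% of windows), and Pi16 held CCAAT, at -64 (33.8%). A match of letters does not show that a site is used. The printed Zfp423 window held GGGCGG at 2 places, and 32.7% of windows held it at least once. It had 71.6% G and C, against 43.6% in Dpp4 and 52.4% in Pi16. Another RefSeq start of Zfp423, with the window chr8:87804440-87804689, held GGGCGG once and had 64.8% G and C. None of the 5 motifs occurred in the windows of Pdgfra or Cd34. TGANTCA, which 6.75% of windows held, occurred in none of the windows of these 5 genes.

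Relative depth, read from the steps between the lowest values, was 0.825 to 0.983 of the median library in BAT and 1.02 to 1.17 in vWAT, and the total number of fragments is unknown. Replicates correlated at a Pearson r of 0.981 to 0.985 across genes. H19 checked the labels. It averaged 130 FPKM in BAT siCtrl and 4.36 in BAT siH19 at d0, 89.8 and 13.7 at d3, and in vWAT 11.7 and 1.21 at d0 and 8.59 and 0.528 at d3, with no overlap in any of these pairs. It fell by 2.56 to 4.63 on the log2(FPKM + 1) scale with siH19 (limma, adjusted p = 0.00133 to 0.00965). Mature adipocyte genes, 10 in the list, summed to 3287 to 3574 FPKM in BAT siCtrl at d0 and to 40220 to 41990 at d3, and in vWAT siCtrl to 4311 to 4345 and 20430 to 21390, with Lep below 1 in all groups. vWAT libraries also carried mesothelial transcripts and those of the keratins Krt8 and Krt18. The other epithelial genes listed, Epcam and Cdh1, averaged below 1 FPKM in vWAT siCtrl at d0. The 5 mesothelial genes summed to 114 to 132 FPKM in vWAT siCtrl at d0 and 39.1 to 45.4 at d3, against 1.36 to 5.92 in BAT siCtrl, where Upk3b was listed at 0 in every d0 library. The 8 macrophage and leukocyte genes summed to 309 to 342 FPKM in vWAT siCtrl at d0 and 526 to 570 at d3. In BAT siCtrl they summed to 137 to 171 at d0 and 136 to 167 at d3. Their part in the marker values was not tested. The 4 lymphocyte genes summed to at most 0.611 FPKM. In bulk libraries, fewer cells of a type and less RNA per cell cannot be told apart.

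**Figure D1:**
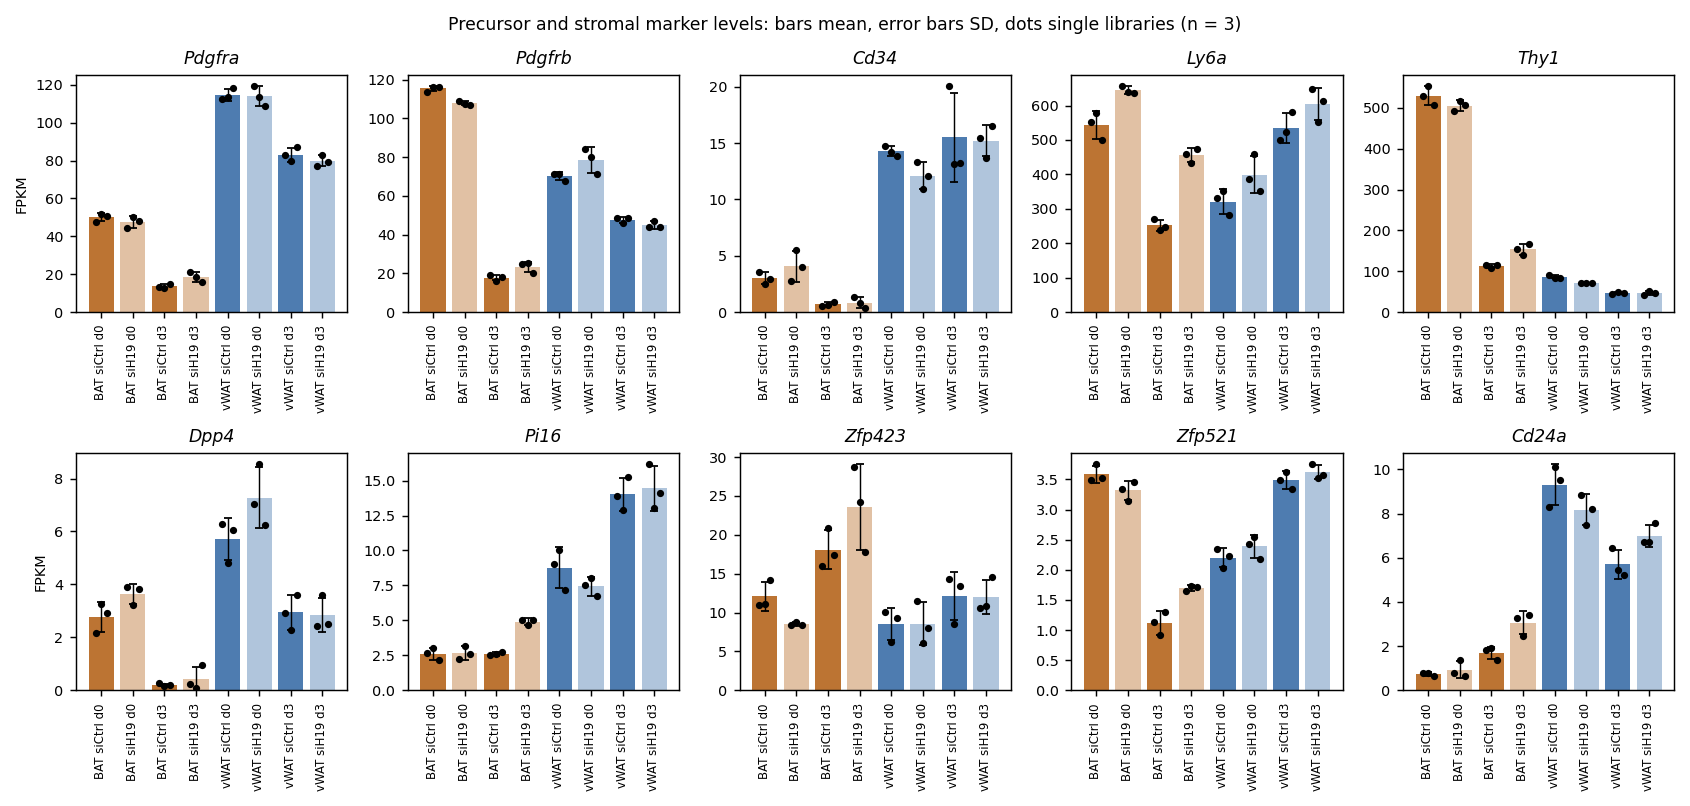
FPKM of each of the 10 markers in the 8 groups: bars show the mean and error bars the SD over 3 libraries, and dots show single libraries. BAT groups are brown and vWAT groups blue, with siH19 in the pale shade; Thy1 fell from 530 to 112 FPKM in BAT siCtrl, and Pi16 was highest in vWAT at d3, at 14.0 (siCtrl) and 14.4 (siH19).

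FPKM are per length, so levels can be set side by side between genes. At d0 in BAT siCtrl, Ly6a and Thy1 stood far above the rest, at 543 ± 40.6 and 530 ± 23.7 FPKM (mean ± SD, n = 3), and their ranges overlapped. Pdgfrb followed at 115, Pdgfra at 50.1 and Zfp423 at 12.1. Zfp521 (3.58), Cd34 (2.99), Dpp4 (2.79) and Pi16 (2.61) overlapped in turn with their neighbours in this order, and Cd24a was lowest at 0.749. In vWAT siCtrl at d0 the order differed. Ly6a led at 321 ± 35.9, then Pdgfra at 115 ± 3.11, Thy1 at 86.3, Pdgfrb at 70.1 and Cd34 at 14.3, while Cd24a (9.31), Pi16 (8.78), Zfp423 (8.48) and Dpp4 (5.72) overlapped in turn, and Zfp521 was lowest, at 2.03 to 2.35. The SCA-1 transcript thus led in vWAT siCtrl and was level with Thy1 in BAT siCtrl, where Thy1 was the higher of the pair in 1 of 3 libraries.

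The first question was how the markers moved as BAT precursors entered adipogenesis under siCtrl. Genes were called at an adjusted p under 0.05 (limma, Benjamini-Hochberg over all genes tested) and a change of at least 1.3-fold. On that rule 7 of the 10 markers fell, 2 rose and 1 was not called, where 65.2% of all 13001 genes tested were called. Genes were tested if they reached 1 FPKM in at least 3 of the 6 libraries. Cd34 and Dpp4 passed this filter through their d0 libraries alone, and Cd24a through its d3 libraries alone. The filter thus fixed the direction of those calls, and their p-values do not bear on it. With 1 of the 6 libraries left out, 7 to 8 markers were called. The median difference was -1.17 on the log2(FPKM + 1) scale, against -0.10 over all genes tested. Values below are log2 differences on that scale with their SE, which understate the change of genes with low FPKM.

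The PDGF receptors, tyrosine kinases that drive precursor proliferation, fell steeply. Pdgfrb (chr18:61045150-61085061) read 114, 116 and 116 FPKM at d0 and 19.1, 16.2 and 18.2 at d3. All d3 libraries lay far below all d0 libraries, a fall of 2.63 ± 0.06 (adjusted p = 1.24e-07), or 6.48-fold lower in mean FPKM. Pdgfra (chr5:75152292-75198215) read 47.7, 51.9 and 50.8 FPKM at d0 and 13.3, 12.7 and 14.7 at d3. The groups did not overlap, and Pdgfra fell by 1.81 ± 0.07 (adjusted p = 7.89e-07), 3.70-fold lower in mean FPKM. Thy1 (chr9:44043384-44048579), a GPI-anchored protein used to sort stromal cells, went from 528, 554 and 507 FPKM to 114, 107 and 116. That was a fall of 2.23 ± 0.05 (adjusted p = 8.76e-08). Ly6a (chr15:74994877-74998031), which encodes SCA-1, went from 552, 579 and 499 FPKM to 269, 239 and 248. It fell by 1.10 ± 0.07 (adjusted p = 8.92e-06) and still led the 10 at d3.

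Dpp4 (chr2:62330073-62412231), a serine peptidase of the interstitial progenitor, had the largest fold between mean FPKM, from a low level. It read 2.16, 3.27 and 2.93 FPKM at d0 and 0.259, 0.169 and 0.202 at d3, 13.3-fold lower in mean FPKM. Its difference was -1.64 ± 0.13 (adjusted p = 2.78e-05), and -3.21 with a pseudocount of 0.1 FPKM. Cd34 (chr1:194938819-194961279) went from 3.54, 2.50 and 2.93 FPKM to 0.572, 0.641 and 0.899, a fall of 1.22 ± 0.13 (adjusted p = 0.000134). Pi16 (chr17:29318877-29329413 in the table; GENCODE M21 extends it to 29317680 and 29330593), a peptidase inhibitor listed with Dpp4 as an interstitial progenitor marker, did not follow. It read 2.64, 3.03 and 2.15 FPKM at d0 and 2.50, 2.57 and 2.72 at d3, and the groups overlapped (0.00 ± 0.11, adjusted p = 0.987). The ratio of Pi16 to Dpp4 within a library was 0.735 to 1.22 at d0 and 9.64 to 15.2 at d3.

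The zinc-finger regulators parted. Zfp423 (chr8:87661810-87959595), which promotes preadipocyte commitment, read 10.99, 11.1 and 14.2 FPKM at d0 and 16.0, 20.9 and 17.4 at d3. It rose by 0.54 ± 0.13 (adjusted p = 0.00825), with no overlap. Zfp521 (chr18:13687013-13972733), a repressor of Zfp423 that holds cells uncommitted, read 3.48, 3.75 and 3.52 FPKM at d0 and 1.13, 0.912 and 1.31 at d3, and fell by 1.12 ± 0.10 (adjusted p = 4.63e-05). Within a library the ratio of Zfp423 to Zfp521 was 2.95 to 4.05 at d0 and 13.3 to 22.9 at d3. Cd24a (chr10:43578284-43584265), the heat-stable antigen, read 0.806, 0.792 and 0.650 FPKM at d0 and 1.84, 1.89 and 1.39 at d3. It rose by 0.63 ± 0.11 (adjusted p = 0.00144) from a level under 1 FPKM.

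The same step was then examined in vWAT siCtrl. Of the 10, 5 fell and 3 rose, where 50.3% of 13368 genes tested were called, and the median difference was -0.19 against 0.01 over all genes. With the replicate block, or without vWAT siCtrl d3 replicate 2, 9 were called. Pdgfra read 112, 113 and 118 FPKM at d0 and 82.9, 79.6 and 86.9 at d3, a fall of 0.46 ± 0.05 (adjusted p = 0.000148). Pdgfrb fell from 71.4, 71.2 and 67.7 FPKM to 48.4, 45.8 and 48.5, by 0.55 ± 0.04. Thy1 fell by 0.89 ± 0.05, from 86.3 to 46.2 FPKM, and Dpp4 by 0.78 ± 0.15, from 5.72 to 2.94. Cd24a, which rose in BAT, read 8.29, 10.1 and 9.54 FPKM at d0 and 6.46, 5.45 and 5.22 at d3. It fell by 0.62 ± 0.10 (adjusted p = 0.00193), as the summed mesothelial transcripts also did in these libraries, and the part of those cells in it was not tested.

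The 3 markers that rose in vWAT siCtrl were Ly6a, Pi16 and Zfp521. Ly6a read 331, 351 and 281 FPKM at d0 and 500, 523 and 582 at d3. The d3 libraries all lay above the d0 libraries, the opposite order to BAT, and Ly6a rose by 0.74 ± 0.09 (adjusted p = 0.000511). Pi16 went from 9.07, 10.1 and 7.21 FPKM to 13.9, 12.9 and 15.2, a rise of 0.63 ± 0.12 (adjusted p = 0.00405). Zfp521 went from 2.35, 2.03 and 2.22 FPKM to 3.50, 3.63 and 3.35 and rose by 0.49 ± 0.08 (adjusted p = 0.00159). Cd34 and Zfp423 were not called. Cd34 read 14.7, 14.2 and 13.8 FPKM at d0 and 20.1, 13.2 and 13.3 at d3, so that a single d3 library was high. Zfp423 differed by 0.46 ± 0.23 (adjusted p = 0.124), with overlapping groups and a range at d3 of 8.55 to 14.3 FPKM.

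**Figure D2:**
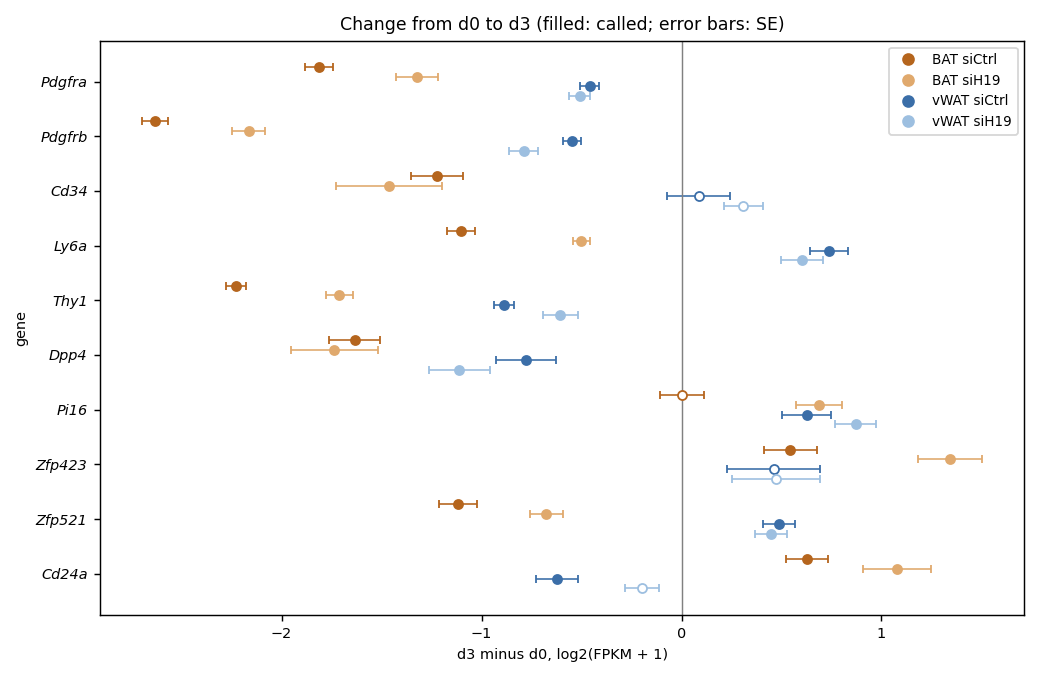
Difference between d3 and d0 on the log2(FPKM + 1) scale for each marker in BAT siCtrl, BAT siH19, vWAT siCtrl and vWAT siH19 (3 libraries against 3); error bars are the SE and filled points were called. Ly6a and Zfp521 lie below 0 in BAT and above 0 in vWAT, and Cd24a lies above 0 in BAT and below 0 in vWAT.

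The difference between the depots in this step was tested itself, as an interaction of depot and day over the 12 siCtrl libraries. It was called for 9 of the 10 markers, where 53.0% of 14111 genes were called, 8 of them with the more negative change in BAT. The largest was Pdgfrb at -2.08 ± 0.08, then Ly6a at -1.84 ± 0.13, Zfp521 at -1.61 ± 0.12, Pdgfra at -1.35 ± 0.08, Thy1 at -1.34 ± 0.07 and Cd34 at -1.31 ± 0.22. Dpp4 (-0.86 ± 0.21) and Pi16 (-0.62 ± 0.17) were smaller, and Cd24a was positive at 1.25 ± 0.15. For Ly6a, Zfp521 and Cd24a the changes had opposite signs in the 2 depots and passed the test in each. Zfp423 gave 0.08 ± 0.29 (adjusted p = 0.835). Leaving out any of the 12 libraries left 9 markers called.

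With H19 silenced, all 10 markers were called in BAT, 7 lower and 3 higher at d3, where 60.6% of genes were called. Silencing was not constant there: H19 rose from 4.36 FPKM at d0 to 13.7 at d3 (1.47 ± 0.22, adjusted p = 0.000861). Pi16, which was not called under siCtrl, read 2.25, 3.20 and 2.59 FPKM at d0 and 5.04, 4.64 and 5.05 at d3 and rose by 0.69 ± 0.12 (adjusted p = 0.00145). Zfp423 rose by 1.34 ± 0.16 and Cd24a by 1.08 ± 0.17, and the falls of Pdgfrb (2.16 ± 0.08), Thy1 (1.71 ± 0.07), Pdgfra (1.32 ± 0.11), Zfp521 (0.68 ± 0.08) and Ly6a (0.50 ± 0.04) were each smaller in size than under siCtrl. Cd34 and Dpp4 fell by 1.46 ± 0.27 and 1.74 ± 0.22, against 1.22 and 1.64 under siCtrl. Dpp4 again passed the filter on low values through d0 alone. Cd34 at d3 and Cd24a at d0 averaged 0.835 and 0.939 FPKM in BAT siH19. In vWAT siH19, 4 markers fell and 3 rose, where 52.7% of genes were called. Ly6a, Pi16 and Zfp521 rose again, by 0.60 ± 0.11, 0.87 ± 0.10 and 0.45 ± 0.08. Pdgfra, Pdgfrb, Thy1 and Dpp4 fell, and Cd34 (0.31 ± 0.10, adjusted p = 0.0270) passed the test for p and stayed below 1.3-fold. Cd24a gave -0.20 ± 0.09 (adjusted p = 0.0841).

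Whether the change over time in BAT differed between siH19 and siCtrl was tested as an interaction of day and siRNA over the 12 BAT libraries. It was called for 6 of the 10 markers, all positive, where 9.06% of 13575 genes were called. Of these genes 1058 were positive and 172 negative, against 522 and 333 with median-of-ratios scaling, which called 3 markers. The 6 markers were Pi16 at 0.69 ± 0.16, Ly6a at 0.60 ± 0.08, Thy1 at 0.52 ± 0.09, Pdgfra at 0.49 ± 0.13, Pdgfrb at 0.47 ± 0.11 and Zfp521 at 0.44 ± 0.12, with adjusted p of 0.00219 (Ly6a) to 0.0432 (Pdgfra). The median over the markers was 0.48, against 0.09 over all genes tested. H19 itself gave 1.99 ± 0.29 (adjusted p = 0.00282), since the siRNA lowered it less at d3 than at d0. Positive values were not particular to the markers: 5 of 9 mature adipocyte genes (median 0.60) and 7 of 13 general fibroblast genes (median 0.34) were also called positive, and none negative. Mature adipocyte genes were already lower with siH19 at d0 in BAT, 5 of 9 by the test, where 1.32% of all genes were called lower. Zfp423, the regulator that rose more under siH19, gave 0.80 ± 0.23 (adjusted p = 0.0533), Cd24a 0.45 ± 0.21, Dpp4 -0.10 ± 0.27 and Cd34 -0.24 ± 0.32, none called. Leaving out 1 library at a time gave 2 to 6 called markers, and the count fell to 2 or 3 without any of 8 libraries, namely BAT siCtrl d0 replicates 1, 2 and 3, siCtrl d3 replicate 2, siH19 d0 replicates 2 and 3, and siH19 d3 replicates 1 and 2. Ly6a and Thy1 were called in all 18 alternatives.

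The direct comparison of siH19 with siCtrl shows where that difference lay. At d0 in BAT, 0 of 9 tested markers were called by limma, where 1.94% of genes were called (78 higher and 167 lower, or 96 and 131 with quantile normalization). Pdgfrb, Ly6a and Zfp423 had an unadjusted p under 0.05, a threshold at which the share of all genes was not taken. Zfp423 read 10.99, 11.1 and 14.2 FPKM in siCtrl and 8.34, 8.75 and 8.47 in siH19, which did not overlap, and differed by -0.45 ± 0.11 (adjusted p = 0.0788). Ly6a read 552, 579 and 499 against 657, 639 and 637 FPKM, again without overlap (0.25 ± 0.06, adjusted p = 0.0726). Cd24a was under the filter on low values and was not tested there. The background moved with single libraries: 245 genes were called in all, 4 without siCtrl d0 replicate 3, 14 to 21 without siCtrl replicate 1 or 2 or siH19 replicate 3, 60 and 74 without siH19 replicates 1 and 2, and 2 with the replicate block.

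At d3 in BAT, 5 of the 8 tested markers were higher with siH19 and none was lower, where 8.57% of genes were called and 6.39% were called higher. Over all genes 799 were higher and 272 lower, and 627 and 410 with median-of-ratios scaling, which left 4 markers called, all higher. Ly6a read 269, 239 and 248 FPKM in siCtrl and 460, 434 and 473 in siH19, 1.81-fold higher in mean FPKM (0.85 ± 0.06, adjusted p = 0.00135). Pi16 read 2.50, 2.57 and 2.72 against 5.04, 4.64 and 5.05 FPKM, 1.89-fold higher (0.72 ± 0.08, adjusted p = 0.00384). Thy1 read 114, 107 and 116 against 155, 140 and 167 FPKM, 1.37-fold higher (0.45 ± 0.07, adjusted p = 0.00977). For these genes the siH19 values all lay above the siCtrl values, and the call held in all 12 alternatives.

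Cd24a (0.58 ± 0.14, adjusted p = 0.0331) and Pdgfra (0.42 ± 0.11, adjusted p = 0.0474) were also called. Pdgfra read 13.3, 12.7 and 14.7 FPKM in siCtrl and 21.0, 18.6 and 15.9 in siH19, which did not overlap but drew close. Its call was lost in 9 of 12 alternatives and that of Cd24a in 8 of 12, and the count was 3 without BAT siCtrl d3 replicate 1, 2 or 3 or siH19 d3 replicate 1. Pdgfrb (0.37 ± 0.10, adjusted p = 0.0527) and Zfp521 (0.35 ± 0.11, adjusted p = 0.0700) did not overlap between groups and missed the threshold. Zfp423 overlapped (0.35 ± 0.18, adjusted p = 0.240). Cd34 and Dpp4 were under the filter on low values, at 0.704 and 0.210 FPKM in siCtrl and 0.835 and 0.437 in siH19, and their groups overlapped. Other genes moved in the same libraries. Of the 8 macrophage and leukocyte genes, 3 of 6 tested fell with siH19 and their sum was 136 to 167 FPKM in siCtrl and 83.8 to 95.5 in siH19, and of 13 general fibroblast genes 6 rose. The mature adipocyte genes summed to 36670 to 39020 FPKM in siH19 and 40220 to 41990 in siCtrl, with 1 of 9 tested lower and none higher. Over all genes tested, 2.18% were called lower with siH19 and 6.39% higher. The part of changed cell shares in the marker values was not tested.

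In vWAT, 0 of 10 markers were called by limma at either day, where 1.53% of genes were called at d0 and 0.0305% at d3. The 200 genes called at d0 became 37 to 122 when any 1 of the 6 libraries was left out, with the fewest without siCtrl replicate 2, and 2 with the replicate block. Cd34, Ly6a and Thy1 at d0 and Cd24a at d3 had an unadjusted p under 0.05. The share of all genes under that unadjusted p was not taken, so these cannot be set against the background. Thy1 at d0 came nearest, at 90.1, 84.2 and 84.5 FPKM in siCtrl and 71.7, 71.5 and 70.0 in siH19. It differed by -0.28 ± 0.04 with an adjusted p of 0.0379 and stayed under 1.3-fold. At d3 the differences ran from -0.08 (Pdgfrb, SE 0.05) to 0.25 (Cd24a, SE 0.09), with SE of up to 0.20 (Zfp423), against 0.85 for Ly6a in BAT. H19 itself started lower in vWAT, at 11.7 FPKM against 130 in BAT at d0. Whether that level bears on the markers was not tested, and it cannot be told apart from depot, medium and library series.

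**Figure D3:**
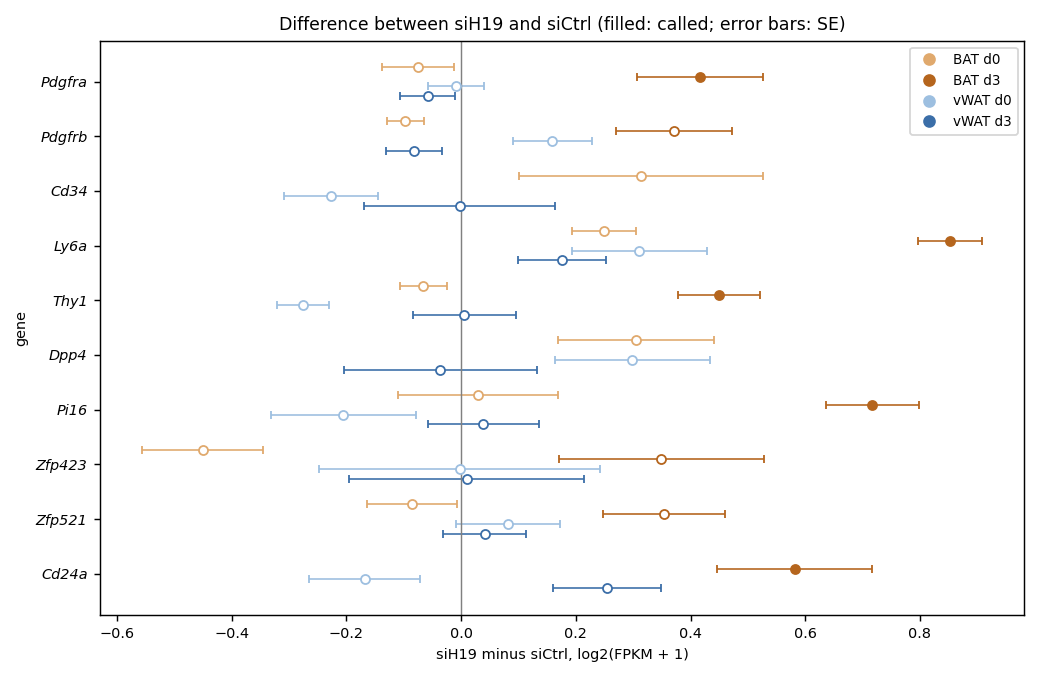
Difference between siH19 and siCtrl on the log2(FPKM + 1) scale for each marker at d0 and d3 in BAT and vWAT (3 libraries against 3); error bars are the SE and filled points were called. The 5 filled points, Pdgfra, Ly6a, Thy1, Pi16 and Cd24a, are all of BAT at d3.

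The siH19 effect at d3 was compared between depots directly, in an interaction of depot and siRNA over 12 libraries. It was called for 5 of 10 markers, all with the larger value in BAT, where 10.5% of 13762 genes were called. Of these genes 966 were positive and 485 negative, against 635 and 759 with median-of-ratios scaling. The 5 markers were Ly6a at 0.68 ± 0.10 (adjusted p = 0.00331), Pi16 at 0.68 ± 0.12 (adjusted p = 0.00651), Pdgfra at 0.48 ± 0.12, Pdgfrb at 0.45 ± 0.12 and Thy1 at 0.44 ± 0.12. The calls of Ly6a and Pi16 held in all 18 alternatives. The count fell to 2 or 3 when any of 10 of the 12 libraries was left out, all but BAT siH19 replicate 3 and vWAT siH19 replicate 2, and to 2 with median-of-ratios scaling. This interaction, the one of day and siRNA and the direct BAT comparison share the BAT d3 libraries and are not separate evidence.

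The depots also differed before induction. At d0 under siCtrl, 4 markers were higher in BAT and 5 lower, where 31.2% of 13139 genes were called. Thy1 was 6.14-fold higher in BAT in mean FPKM (2.60 ± 0.05, adjusted p = 3.93e-07), and Ly6a (0.76 ± 0.09), Pdgfrb (0.71 ± 0.04) and Zfp521 (0.52 ± 0.08) were higher by less. Cd24a was 12.4-fold lower in BAT (-2.56 ± 0.10, adjusted p = 5.45e-06), Cd34 4.78-fold lower (-1.94 ± 0.11), Pi16 3.37-fold lower (-1.44 ± 0.14), Pdgfra 2.29-fold lower (-1.18 ± 0.05) and Dpp4 2.05-fold lower (-0.83 ± 0.15). Cd24a stayed under 1 FPKM in every BAT siCtrl library at d0 and passed the filter through vWAT alone. The filter thus fixed its direction, and its fold rests on BAT values near the floor. Zfp423 was not called (0.48 ± 0.18, adjusted p = 0.0714). The median of all genes tested was -0.13 here, and the BAT libraries were the shallower ones. Over all genes 1343 were higher and 2753 lower in BAT, and 1834 and 1958 with median-of-ratios scaling and 2020 and 1760 with quantile normalization, both of which gave 5 markers higher and 5 lower. Cd24a is also known from epithelia. Krt8 and Krt18, keratins of simple epithelium, stood at 17.0 and 23.2 FPKM in vWAT siCtrl at d0, while in BAT Krt8 was listed at 0 and Krt18 averaged 0.0121. Of the 4 epithelial genes listed, these were the 2 that averaged 1 FPKM or more in vWAT siCtrl at d0. Epcam and Cdh1 lay below that. Of the mesothelial genes, 5 of 5 were called lower in BAT at d0 (median -4.94), where 21.0% of all genes were called lower. The part of mesothelial or epithelial cells in the Cd24a difference was not tested.

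At d3 under siCtrl, 8 markers were lower in BAT and 2 higher, where 48.6% of genes were called (2162 higher and 4216 lower in BAT, or 2802 and 3348 with median-of-ratios scaling and 3333 and 2804 with quantile normalization, both of which kept 8 markers lower and 2 higher). Cd34 was 22.0-fold lower in BAT (0.704 against 15.5 FPKM, -3.25 ± 0.17), Dpp4 14.0-fold lower, Pdgfra 6.13-fold lower and Pi16 5.40-fold lower. Cd34 and Dpp4 stayed under 1 FPKM in every BAT siCtrl library at d3 and passed the filter through vWAT alone. The filter thus fixed their direction, and their folds rest on BAT values near the floor. Ly6a, Pdgfrb and Zfp521, higher in BAT at d0, were lower in BAT at d3, by -1.08 ± 0.07, -1.37 ± 0.07 and -1.09 ± 0.10. Thy1 remained higher in BAT, 2.43-fold in mean FPKM, and Zfp423 was higher by 0.57 ± 0.19 (adjusted p = 0.0386), a call that was lost in 5 of 12 alternatives.

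The balance of the receptors within a library is free of scaling between libraries. Pdgfra was 0.406 to 0.853 of Pdgfrb over the 12 BAT libraries and 1.42 to 1.81 over the 12 vWAT libraries, with no overlap. In BAT siCtrl the ratio was 0.419 to 0.446 at d0 and 0.698 to 0.810 at d3, and in vWAT siCtrl 1.58 to 1.75 and 1.71 to 1.79. The ratio of Ly6a to Thy1 rose with day in both depots under siCtrl, from 0.984 to 1.04 up to 2.14 to 2.36 in BAT and from 3.33 to 4.17 up to 10.8 to 12.8 in vWAT, as ranges over 3 libraries. At d0 it was 1.24 to 1.33 in BAT siH19 and 5.05 to 6.41 in vWAT siH19, above the siCtrl range in each depot. At d3 it was 2.83 to 3.10 in BAT siH19, above siCtrl, and 10.7 to 16.0 in vWAT siH19, which overlapped siCtrl. These ratios were picked after the levels had been seen and carry no test.

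**Figure D4:**
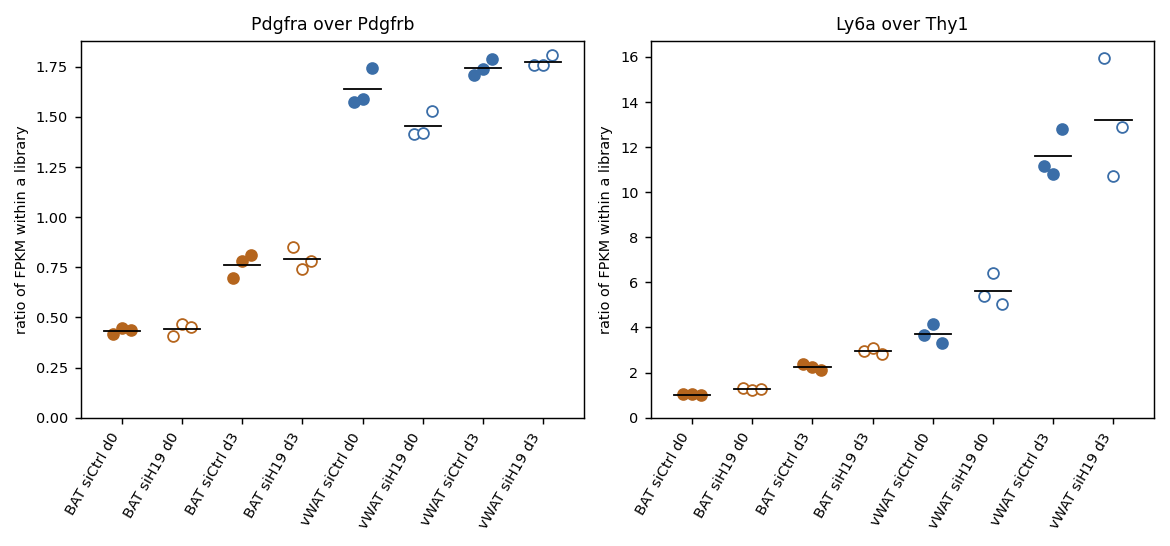
Ratio of Pdgfra to Pdgfrb (left) and of Ly6a to Thy1 (right) within each library, by group; points are libraries, lines are means of 3, filled points are siCtrl and open points siH19. The Pdgfra to Pdgfrb ratio is at most 0.853 in every BAT library and at least 1.42 in every vWAT library.

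The genes around the markers were described as lists. From d0 to d3 under siCtrl, 35.3% of all genes were called lower in BAT and 23.9% in vWAT. Dlk1, Runx2, Gata2, Tgfb2 and Itgb1, which the study's assay table marks as progenitor genes beside Pdgfra, Pdgfrb, Cd34, Ly6a and Cd24a and which are therefore not independent evidence of a direction, fell in 5 of 5 cases in BAT siCtrl from d0 to d3 (median -1.99) and in 4 of 5 in vWAT (median -1.25). At d3 in BAT 5 of 5 were higher with siH19 (median 0.80, against 0.05 over all genes), with Runx2, the osteogenic regulator, at 0.93 and Gata2, a transcription factor of preadipocytes, at 0.80. Over all genes 6.39% were called higher there. In vWAT at d3, 0 of 5 were called by limma, where 0.0305% of genes were called. The interaction of depot and siRNA was called for 2 of the 5, Gata2 (0.66) and Itgb1 (0.46), where 10.5% of genes were called.

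The ligands of the PDGF receptors fell with them. In BAT siCtrl 5 of 5 ligand or receptor-like genes fell (median -2.04), with Pdgfa from 38.3 to 8.92 FPKM and Pdgfd from 9.77 to 1.12, and in vWAT 3 of 5 fell, with Pdgfa from 18.4 to 5.84 and Pdgfd at 3.88 and 4.62, not called. Of the interstitial progenitor genes other than Dpp4 and Pi16, 5 of 7 tested fell in BAT and none rose. Anxa3, an annexin, fell from 328 to 58.4 FPKM and Wnt2, a Wnt ligand, from 13.7 to 0.551, while Cd55, a complement inhibitor, at 5.18 and 4.56 FPKM, was not called there and rose in vWAT from 11.7 to 18.6. In vWAT 4 of 7 fell and 2 rose. Among 8 genes of committed preadipocytes, 5 fell and 1 rose in BAT, and 4 fell and 4 rose in vWAT. Ggt5, a gamma-glutamyltransferase, fell from 42.5 to 4.02 FPKM in BAT and rose from 11.98 to 31.4 in vWAT, and its interaction of depot and day was -4.44.

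General fibroblast genes fell in 12 of 13 cases in BAT siCtrl and rose in none (median -2.10), and in vWAT 8 fell and 2 rose (median -0.63). Cd44, the hyaluronan receptor, fell by 3.39 in BAT and 2.79 in vWAT. Cd248, endosialin of the stroma, which was picked after its values were seen, fell from 139 to 38.9 FPKM in BAT and rose from 80.5 to 122 in vWAT, the pattern of Ly6a and Zfp521. Of 11 genes of the Ly6 family, 4 were tested in each depot. Ly6c1, a neighbour of Ly6a that shares sequence with it, fell by 2.00 on the log2 scale in BAT from 54.8 FPKM and rose from 23.1 to 39.1 in vWAT. Among 12 partners and targets of the zinc-finger regulators, Ebf2, a brown precursor factor and the single gene to rise, went from 8.24 to 12.5 FPKM in BAT, and 9 fell. These counts stand beside 29.9% of all genes called higher and 35.3% called lower in BAT, and 26.3% and 23.9% in vWAT.

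**Figure D5:**
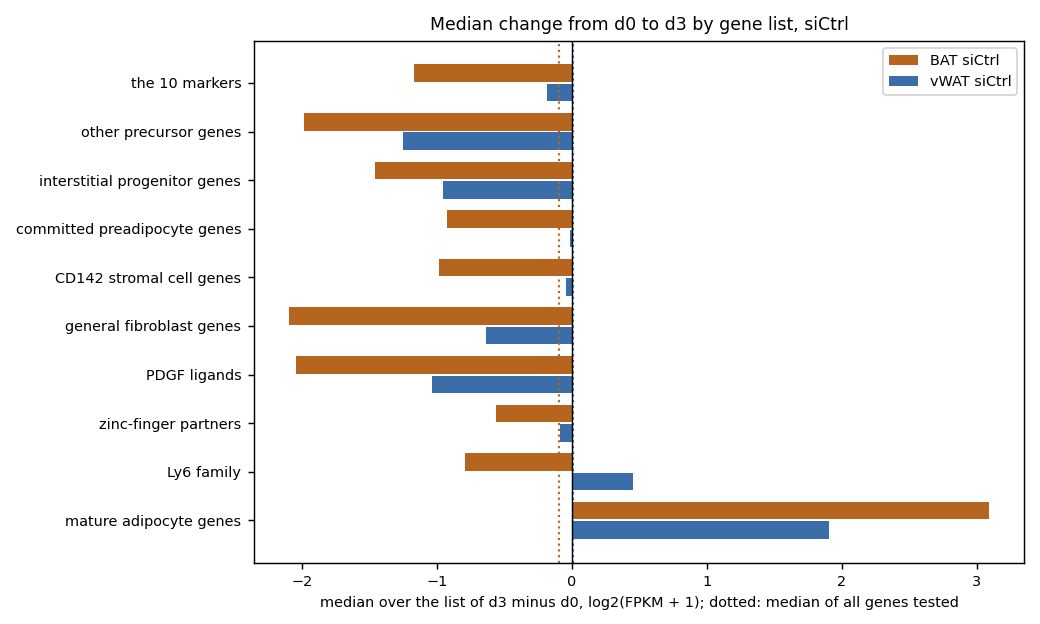
Median difference between d3 and d0 on the log2(FPKM + 1) scale over the tested genes of each list under siCtrl, in BAT (brown) and vWAT (blue); dotted lines mark the median of all genes tested. The lists of stromal genes lie further below 0 in BAT than in vWAT, where the Ly6 family lies above 0 (0.45), and the mature adipocyte genes lie above 0 in both (3.09 and 1.90).

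For each marker the named genes with the most similar profile over the 24 libraries were taken by Pearson r of log2(FPKM + 1) among 11243 genes, as a description in which depot and day set most of the spread. Pdgfra was most like Ptk7 (0.995), Maf and Spon2, Pdgfrb like Kank2 (0.993), Avpr1a and Plxdc2, and Thy1 like Gldn (0.992), Epdr1 and Prelp. Zfp521 was most like Cd248 (0.975), Sfrp1 and Gstm5, and Ly6a like Ly6c1 (0.922), E2f6 and Drap1. Cd34 was most like Gas7 (0.978), Twsg1 and Egfr, Dpp4 like Rnf114 (0.969), Casc4 and Nudt6, Pi16 like Nr2f2 (0.967), Rpl3 and Medag, and Cd24a like Scarb2 (0.969), Tkfc and Dnaja1. Zfp423 had the weakest match, Lnpep at 0.882, followed by Cyp2u1 and Nfatc3.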

How the data were processed

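RNA from 24 samples was sequenced. The authors deposited 1 table of values that names no unit and holds no read counts, and the values were taken as FPKM (fragments mapped to a gene, divided by its length and by the library size) because the study's figures name FPKM and column sums differed (710794 to 841456). Per the labels and the paper, the authors aligned reads with TopHat2 2.0.10 to GRCm38.p5 and quantified genes with Cufflinks, version 2.2.1 in the submitters' processing notes. The labels give paired reads and the paper single reads, which was not settled. FPKM are relative, so a rise of abundant genes lowers all others, and without counts no counting interval can be given. No column was left out (0).

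Here, log2(FPKM + 1) was fitted in R 4.3.3 with limma 3.58.1 (moderated statistics with an intensity trend) on the 6 libraries of each of 10 comparisons, or the 12 of each of 3 interactions, for genes at 1 FPKM or more in at least 3 of them. Calls needed a Benjamini-Hochberg adjusted p under 0.05 over all genes tested and a 1.3-fold change, without the fold for interactions. Groups and replicate numbers came from the sample titles. A pseudocount of 0.1, no filter, other scalings, no minimum fold, 1 fit over all 24 libraries, a replicate block and leaving out each library were tried. The fit was tested on simulated data. Python 3.11.15 handled levels, motifs and sequences. Named were the 10 markers, H19, the 3 most alike genes of each marker and, per list and comparison, up to 4 called genes with the largest differences. Cd55, Cd248 and Ebf2 in BAT, Lep, Pdgfd in vWAT, and the overlapping genes were added after their values were seen. The markers and lists were chosen with earlier results of these data known. Annotation was GENCODE M21.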

Additional observations from a re-analysis of the deposited data

Results flagged for a closer look

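The change from d0 to d3 under siCtrl differed between BAT and vWAT, by the test of that difference itself (limma, 12 libraries), for 9 markers: Pdgfrb (-2.08), Ly6a (-1.84), Zfp521 (-1.61), Pdgfra (-1.35), Thy1 (-1.34), Cd34 (-1.31), Dpp4 (-0.86), Pi16 (-0.62) and Cd24a (1.25), as log2 differences of differences, BAT minus vWAT. The effect of siH19 at d3 differed between the depots for Pi16 (0.68), Ly6a (0.68), Pdgfra (0.48), Pdgfrb (0.45) and Thy1 (0.44). The effect of siH19 in BAT differed between d3 and d0 for Pi16 (0.69), Ly6a (0.60), Thy1 (0.52), Pdgfra (0.49), Pdgfrb (0.47) and Zfp521 (0.44). Over all genes tested, 53.0%, 10.5% and 9.06% were called in these 3 interactions, in the order given. Groups of 3 libraries are too small for a test of outlying libraries. These values are descriptions of which contrasts differ, and the last 2 sets share the BAT d3 libraries.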

How the results depend on the processing

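No call changed direction under any alternative. Of all values recomputed, 1527 kept their side of the threshold, 107 lost it, 10 gained it and 39 that were called in neither setting changed sign. For siH19 against siCtrl at d3 in BAT, where 5 markers were called, 3 were called without the filter on low FPKM, with quantile normalization and with the replicate block, and 3 to 5 when 1 library was left out. For the interaction of depot and siRNA at d3, also 5, the count was 2 without the filter, 2 with median-of-ratios scaling, 3 with quantile normalization, 2 with the replicate block and 2 to 4 with 1 library left out. For the interaction of day and siRNA in BAT, 6 as reported, it was 3 without the filter, 3 with median-of-ratios scaling, 3 with quantile normalization and 2 to 6 with 1 library left out. For the change from d0 to d3 in BAT siCtrl, 9 as reported, it was 7 to 8 with 1 library left out. For the depots at d3 under siCtrl, 10 as reported, it was 7 to 10. In vWAT at d0, 1 marker (Thy1, lower with siH19) was called without a minimum fold change. Why these counts moved was not tested. Replicate numbers did not pair the libraries: deviations of same-numbered libraries from their group means correlated at -0.113 to 0.0616 in the comparisons of 2 groups. The block is therefore given only as an alternative, here and beside some counts above. Scaling moved the median of all genes by over 0.1 only between depots, from -0.13 to -0.015 (median-of-ratios) and 0.019 (quantile) at d0, and from -0.16 to -0.036 and 0.045 at d3. The number of fragments is unknown, and Dpp4, Cd34 and Cd24a were under 1 FPKM in some BAT groups.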

Other observations

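Genes of CD142+ stromal cells, a population that restrains adipogenesis, split in both depots under siCtrl. F3, which encodes CD142 (tissue factor), fell by 2.77 in BAT and 1.60 in vWAT from d0 to d3 on the log2(FPKM + 1) scale, and Fmo2, a monooxygenase, rose by 2.21 and 3.73 (limma, adjusted p under 0.05). In all, 3 of 5 tested genes of that list fell and 2 rose in BAT, and 2 of 4 fell and 2 rose in vWAT, where 65.2% and 50.3% of all genes were called. At d3 in BAT, F3 was higher with siH19 by 0.48 and the other 4 were not called, where 8.57% of all genes were called.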
